A study of Mus musculus with 24 samples.

Results

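The genes described here are the receptors of the glucocorticoid stress hormones and 4 genes that these receptors switch on. They are Nr3c1, the glucocorticoid receptor, Nr3c2, the mineralocorticoid receptor, and the targets Fkbp5, Sgk1, Tsc22d3 and Errfi1. They were chosen by symbol, and all 6 were among the 14014 genes listed in every one of the 4 deposited tables. The libraries were made from ribosome-depleted total RNA of the cortex of male mice, 3 to 4 months old. A filament had closed the middle cerebral artery for 1 h, and the blood had flowed again for 1 day, a model of ischemic stroke. Wild-type (WT) mice were compared with knockout (KO) mice of Cdr1as, a circular RNA that binds the microRNA miR-7, and the labels give the strain C57BL/6N-Cdr1asem1Nikr for all 12 animals, WT included. Each animal gave a library marked CL and a library marked PI, marks that the labels do not spell out, so there were 4 groups of 6 libraries, CL and PI of WT mice and CL and PI of KO mice. Every library analysed here came from an animal with the occlusion.

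Corticosterone, the main glucocorticoid of the mouse, is released by the adrenal gland under stress and enters brain cells. In the cytoplasm the unbound glucocorticoid receptor is held by HSP90 and its partner proteins. When the hormone binds, the receptor moves to the nucleus and attaches to DNA as a pair of molecules, at a palindromic element whose arms read AGAACA and TGTTCT. The mineralocorticoid receptor binds the same hormone with higher affinity and recognises the same element. Because the hormone travels in the blood, it reaches both hemispheres. Fkbp5 codes for a co-chaperone that lowers the hormone affinity of the receptor, Sgk1 for a kinase that regulates ion channels and transporters, Tsc22d3 for GILZ, a protein that restrains inflammatory transcription factors, and Errfi1 for MIG6, an inhibitor of the EGF receptor.

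Promoter windows from RefSeq (GRCm38.p6, 250 bases before to 50 bases after an annotated start) were found for 5 of the 6 genes, 13 windows in all. Nr3c1 had no entry. The windows below are shown because they hold the receptor's element, 1 of its arms, or neither, in 3 of the target genes. Capitals mark the full element, AGAACA and TGTTCT with 3 bases of any kind between them, in Sgk1 (chr10:21993640-21993939, plus strand), where another arm outside it, near the start of the window, is left in lower case. They also mark a lone arm in Tsc22d3 (chrX:140600473-140600772, minus strand). The Errfi1 window (chr4:150854820-150855119, plus strand) holds neither, so it has no capitals.
Sgk1: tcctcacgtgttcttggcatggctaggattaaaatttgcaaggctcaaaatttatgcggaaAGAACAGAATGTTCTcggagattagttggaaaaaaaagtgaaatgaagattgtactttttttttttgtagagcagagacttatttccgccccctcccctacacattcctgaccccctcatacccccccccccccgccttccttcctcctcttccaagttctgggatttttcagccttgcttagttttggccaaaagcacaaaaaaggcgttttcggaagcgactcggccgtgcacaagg
Tsc22d3: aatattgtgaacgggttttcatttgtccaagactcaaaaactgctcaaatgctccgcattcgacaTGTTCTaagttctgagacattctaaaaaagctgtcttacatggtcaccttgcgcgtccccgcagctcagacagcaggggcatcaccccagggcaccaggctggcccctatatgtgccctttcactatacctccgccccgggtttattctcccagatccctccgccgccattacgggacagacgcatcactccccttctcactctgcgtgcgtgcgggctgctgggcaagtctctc
Errfi1: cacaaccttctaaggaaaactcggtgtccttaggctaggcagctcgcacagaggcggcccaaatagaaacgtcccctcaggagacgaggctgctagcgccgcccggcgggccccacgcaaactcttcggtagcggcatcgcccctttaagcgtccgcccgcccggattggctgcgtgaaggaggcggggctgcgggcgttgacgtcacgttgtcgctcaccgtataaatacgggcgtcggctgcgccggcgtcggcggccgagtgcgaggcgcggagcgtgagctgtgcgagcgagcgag
Searched on both strands, the full element occurred in 3 of 32851 promoter windows of the same length (0.00913%), and the Sgk1 window was 1 of them. Its element lay at 21993701 to 21993715 of chromosome 10, 174 bases before that start. A looser core, GNACA and TGTNC with 3 bases between them, which overlaps the full element, was in 156 windows (0.475%). The single arm AGAACA was in 6233 windows (19.0%), among them 3 of the 6 Sgk1 windows and 1 of the 3 Tsc22d3 windows. The 2 Errfi1 windows, the Fkbp5 window and the Nr3c2 window held no arm. These matches describe letters in short windows, and no binding was measured here.

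Levels are log2 CPM, the log2 of a gene's reads after scaling to library size, and each table of 2 groups was scaled on its own. In every gene and group the deposited values had been drawn in at both ends, so the lowest and the highest library cannot be recovered. A group is therefore described by its second lowest, median and second highest library, and groups are said not to overlap when these inner 4 libraries of each do not. Where single animals are counted, the unknown ends were set to the nearest recovered value. Differences are between means of the inner 4 libraries, with the standard error (SE) of a moderated trimmed-mean test (limma empirical Bayes, both directions). Calls were made where the Benjamini-Hochberg adjusted p over all genes of a table was under 0.05. Depth read from the values ran from 3.75 to 10.5 M reads per library, with a median of 6.91, and the shallowest was CL KO replicate 6. Cdr1as checked the labels: it stood at 11.83 ± 0.05 (SE, n = 6) in CL WT and stood at least 4645-fold lower in CL of KO mice, against a floor of 3 reads per library. In PI it was at least 4815-fold lower in KO. Of the markers of the labelled tissue, 10 of 10 neuronal and 8 of 8 cortical layer genes were listed. Of 8 striatal markers 6 were listed too, with sums of 119 to 146 CPM in PI WT and 138 to 177 in CL WT, while Drd2 and Adora2a were not. All marker sums in this text come from the deposited values, whose drawn-in ends understate the spread between libraries. By these ranges, neuronal, layer and astrocyte sums were lower, and microglial sums higher, in PI than in CL without overlap in both genotypes.

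Per kilobase of merged exons in GENCODE M21 (GRCm38), Sgk1 and Nr3c1 were the most abundant of the 6 genes. In CL WT Sgk1 stood at 31.4 CPM per kb, Nr3c1 at 30.3, Tsc22d3 at 13.2, Errfi1 at 12.4, Nr3c2 at 9.79 and Fkbp5 at 3.70. In CL KO Nr3c1 (33.5 CPM per kb) stood before Sgk1 (28.1), and Errfi1 (9.98) lay close to Nr3c2 (9.36). The order among these neighbours was not tested. The library spread of a gene is given with its levels in the following paragraphs and in the plot of levels by library. Fkbp5 was the least abundant of the 6 in all 4 groups.

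**Figure D1:**
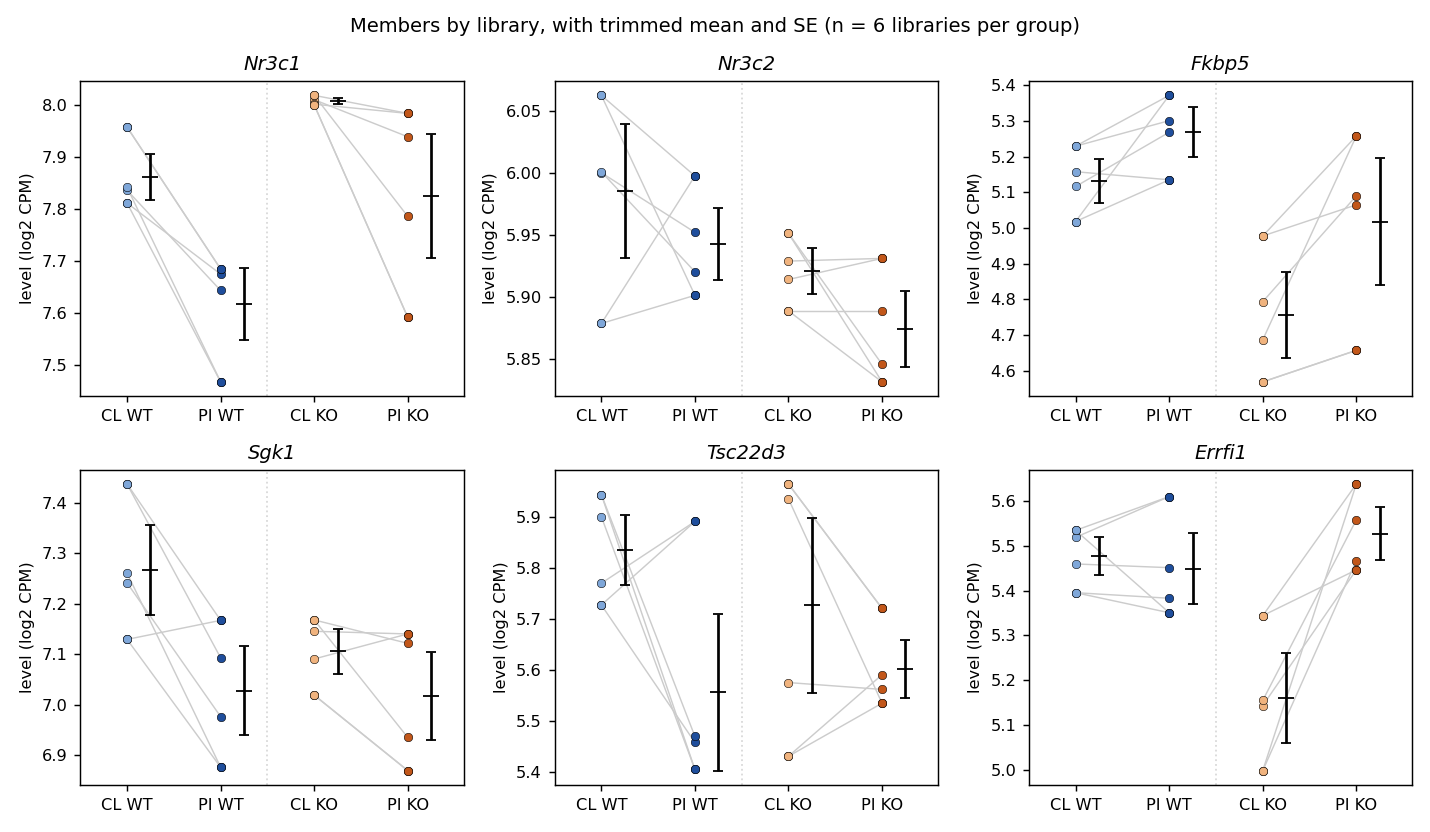
Level (log2 CPM) of the 6 genes in each library, by side and genotype (6 libraries a group), with the lowest and highest point of a group drawn in to the second lowest and second highest. Grey lines join the libraries of 1 animal, and bars give the trimmed mean ± SE. WT and KO come from tables scaled apart, split by the dotted line. The PI points of Nr3c1 lie below the CL points in both genotypes, and those of Errfi1 lie above them in KO.

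The receptors came first in the comparison of PI with CL. Nr3c1 (chromosome 18, 39410545 to 39519421, minus strand) had a lower mean in PI in both genotypes, and was called in WT alone. In PI WT its second lowest, median and second highest libraries were 7.47, 7.66 and 7.68 log2 CPM, against 7.81, 7.84 and 7.96 in CL WT. All inner PI libraries lay below all inner CL libraries (26.3% of all genes had groups without overlap). The difference was -0.24 on the log2 scale (SE 0.07, limma adjusted p = 0.0470), so that the level fell by 15.5%. Nr3c1 was the 1 of the 6 genes called in WT, where 10.6% of 14489 genes were called and 5.40% were called lower. The call was narrow: the adjusted p was between 0.0501 and 0.109 when any 1 of the 12 libraries was left out. It was 0.137 without an expression trend in the prior variance. With the animal as a replicate block the limma adjusted p was 0.00282. PI was the higher library in 0 of 6 WT animals. With the ends set to recovered values, groups without overlap fix that count, so it adds nothing to the call.

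In KO the side difference of the receptor had the same direction, without a call. PI KO ran through 7.59, 7.86 and 7.98 log2 CPM and CL KO through 8.0, 8.01 and 8.02, again without overlap. In KO 26.8% of all genes had groups without overlap. The difference was -0.18 (SE 0.09, 95% interval -0.39 to 0.02, limma adjusted p = 0.256). The CL KO libraries were close together, and the PI KO libraries spread more widely. The genotypes' side differences differed by 0.06 (95% interval -0.20 to 0.33), which was not called. Of 10 neuronal markers, 7 were lower in PI WT and 9 in PI KO. In each genotype 2 were called lower, and 0 in WT and 1 in KO were called higher. Their median difference was -0.08 in WT and -0.07 in KO, against 0.01 and -0.00 over all genes. Of all genes, 5.40% were called lower in WT and 4.94% in KO. The summed level of these markers was 7623 to 8387 CPM in PI WT and 8649 to 9219 in CL WT. In KO the same sum was 7396 to 8180 CPM in PI and 8560 to 8914 in CL. Their part in the result was not tested. In tissue RNA, fewer cells of a type and less RNA per cell cannot be told apart.

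Nr3c2 (chromosome 8, 76899442 to 77245012, plus strand), which in the brain is best known from the hippocampus, did not differ between the sides beyond its error. Its libraries ran through 5.90, 5.94 and 6.00 log2 CPM in PI WT and 5.88, 6.00 and 6.06 in CL WT, and the groups overlapped. The difference was -0.04 in WT (95% interval -0.19 to 0.10) and -0.05 in KO (-0.18 to 0.09). A gene on the opposite strand, Gm10649, overlaps Nr3c2 and was listed at 1.86 log2 CPM in the WT table, far below it. Whether the counting used strand is not given in the sources used here.

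Of the 4 targets, none was called between PI and CL in WT and 1, Errfi1, was called in KO, where 10.0% of 14338 genes were called and 5.11% were called higher. Errfi1 (chromosome 4, 150853919 to 150868892, plus strand) ran through 5.45, 5.51 and 5.64 log2 CPM in PI KO and through 5.0, 5.15 and 5.34 in CL KO. All inner PI libraries were above all inner CL libraries (26.8% of all genes had groups without overlap in KO). The difference was 0.37 (SE 0.10, 1.29-fold, limma adjusted p = 0.0377). The call was lost in 8 of the 12 fits that left out a library (PI KO replicates 2, 3, 5 and 6 and CL KO replicates 1, 2, 5 and 6), with values from 0.31 to 0.43 and adjusted p up to 0.0923 over all 12. Without the shallowest library, CL KO replicate 6, the difference was 0.31 with an adjusted p of 0.0596. With the animal as a replicate block the limma adjusted p was 0.00524. PI was the higher library in 6 of 6 KO animals, a count that groups without overlap fix once the ends are set to recovered values.

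In WT the side difference of the same gene was within the spread between libraries. Errfi1 ran through 5.35, 5.42 and 5.61 log2 CPM in PI WT and 5.40, 5.49 and 5.54 in CL WT, and PI was higher in 2 of 6 animals. The difference was -0.03 (95% interval -0.21 to 0.15). The side difference of KO exceeded that of WT by 0.40 (95% interval 0.11 to 0.68, unadjusted p = 0.00897 by limma). This was not called over all genes (adjusted p = 0.992), and 4.55% of 14211 genes had an unadjusted p under 0.05 in this interaction, in which 0 genes were called. CL KO had the lower median of Errfi1 in both tables that hold it. The gene 1700045H11Rik, annotated on the opposite strand over Errfi1, was not listed.

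Fkbp5 (chromosome 17, 28399094 to 28517527, minus strand), the target most used as a readout of receptor activity, was not called between the sides. In WT it ran through 5.13, 5.28 and 5.37 log2 CPM in PI and 5.02, 5.14 and 5.23 in CL, and the groups overlapped. In KO it ran through 4.66, 5.08 and 5.26 in PI and 4.57, 4.74 and 4.98 in CL. PI was the higher library in 5 of 6 WT animals and in 6 of 6 KO animals. The difference was 0.14 in WT (SE 0.09, limma adjusted p = 0.375) and 0.26 in KO (SE 0.16, adjusted p = 0.355), neither beyond the spread between libraries.

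Sgk1 and Tsc22d3 leaned the other way in WT. Sgk1 (chromosome 10, 21882184 to 21999903, plus strand) ran through 6.88, 7.03 and 7.17 log2 CPM in PI WT and 7.13, 7.25 and 7.44 in CL WT, with overlap. PI was the lower library in all but 1 of the 6 WT animals. The difference was -0.24 (SE 0.10, limma adjusted p = 0.150), and with the animal as a replicate block the adjusted p was 0.00781. In KO the libraries ran through 6.87, 7.03 and 7.14 in PI and 7.02, 7.12 and 7.17 in CL, a difference of -0.09 (95% interval -0.27 to 0.09). Oligodendrocytes are known to express Sgk1. The sum of 10 oligodendrocyte markers was 1628 to 2271 CPM in PI WT and 2307 to 2520 in CL WT, with 8 of 10 lower in PI. In KO the sums overlapped, 1796 to 2028 CPM in PI and 1833 to 2496 in CL. Their part in the Sgk1 result was not tested.

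Tsc22d3 (chromosome X, 140539528 to 140600659, minus strand) ran through 5.41, 5.46 and 5.89 log2 CPM in PI WT and 5.73, 5.84 and 5.94 in CL WT. The PI WT libraries were split, with replicates 2 and 4 near the CL level and the others lower. The difference was -0.28 (SE 0.13, limma adjusted p = 0.202). With the animal as a replicate block its adjusted p was 0.0271. Leaving out PI WT replicate 2 or PI WT replicate 4 gave -0.39, with adjusted p of 0.0101 and 0.00921, so the gene passed the threshold when either was left out. Replicates 2 and 4 were tied at the drawn-in upper end, so the fits give the same difference and are not separate results. In KO it ran through 5.54, 5.58 and 5.72 in PI and 5.43, 5.76 and 5.96 in CL, a difference of -0.12 (95% interval -0.42 to 0.17).

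**Figure D2:**
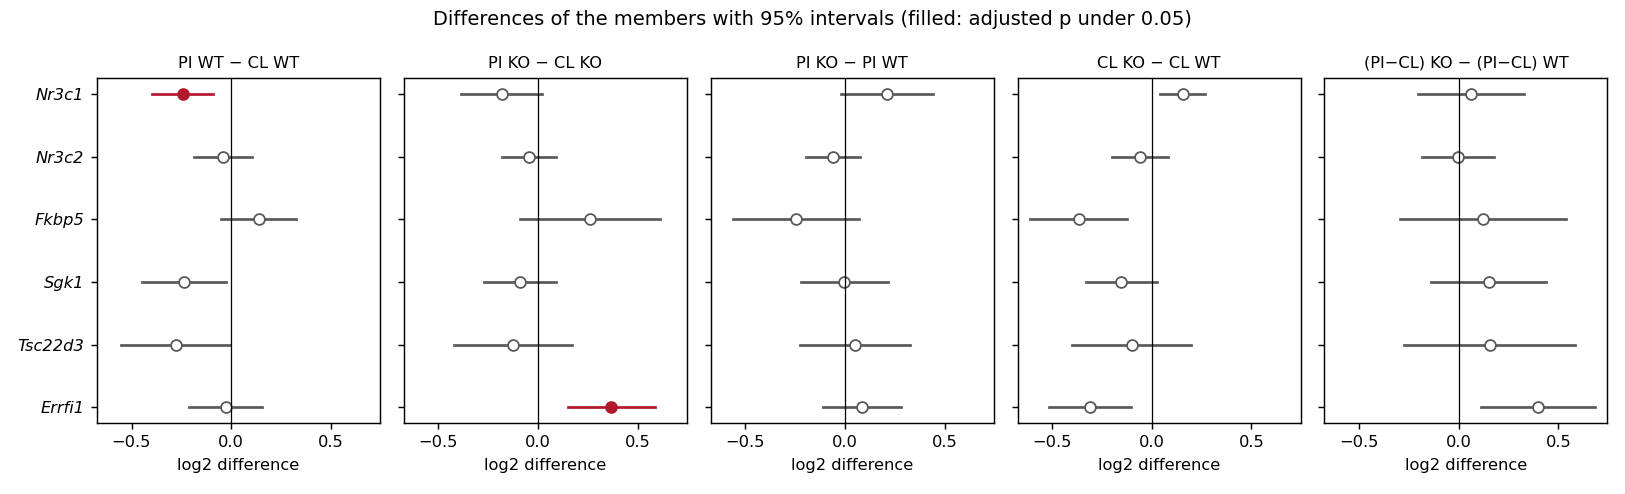
Log2 difference with its 95% interval for each gene in PI against CL within WT and KO, in KO against WT within PI and CL, and in the interaction of both. Filled red points had an adjusted p under 0.05: Nr3c1 in WT (-0.24) and Errfi1 in KO (0.37).

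Between genotypes, no gene of the 6 was called on either side by the trimmed-mean test, but in CL they did not all stand alike. In CL, where 0.0279% of 14323 genes were called, 3 of the 6 had groups that did not overlap, and 8.67% of all genes did so. These 3 also had an unadjusted p under 0.05, as did 5.73% of all genes. Fkbp5 was lower in CL KO, at 4.54, 4.71 and 4.95 log2 CPM, than in CL WT, at 4.98, 5.10 and 5.20. The difference was -0.37 (SE 0.11, -22.4%, unadjusted p = 0.00613, limma adjusted p = 0.648). Without the shallow CL KO replicate 6 it was -0.44 (adjusted p = 0.368). In the CL libraries of KO mice the median of Fkbp5 was thus below the second lowest library of WT mice.

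Errfi1 in CL KO ran through 4.97, 5.12 and 5.32 log2 CPM, below CL WT at 5.36, 5.46 and 5.50. The difference was -0.31 (SE 0.09, unadjusted p = 0.00586, limma adjusted p = 0.645). It shares the CL KO libraries with the side difference in KO described above, so the results are not independent. Nr3c1 went the other way, at 7.97, 7.98 and 7.99 in CL KO and 7.78, 7.81 and 7.92 in CL WT. Its difference was 0.15 (SE 0.05, 11.3% more, unadjusted p = 0.0103, limma adjusted p = 0.736). For the remaining genes the CL groups overlapped, with differences of -0.15 for Sgk1 (95% interval -0.33 to 0.03), -0.10 for Tsc22d3 (-0.40 to 0.20) and -0.06 for Nr3c2 (-0.20 to 0.08). Thus the 4 target genes had lower means and the glucocorticoid receptor a higher mean in CL KO, none of them called. Oligodendrocyte markers were lower in CL KO for 10 of 10 genes, 0 of them called, with sums of 1797 to 2454 CPM against 2252 to 2463 in CL WT. Microglial markers were higher for 7 of 8 genes, 0 of them called, with sums of 178 to 193 CPM against 168 to 179. Their part in these differences was not tested.

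In PI, where 0.0208% of 14452 genes were called, all 6 genes had overlapping groups, while 8.97% of all genes did not. Fkbp5 ran through 4.70, 5.11 and 5.29 log2 CPM in PI KO and 5.16, 5.31 and 5.40 in PI WT, a difference of -0.25 (SE 0.15, limma adjusted p = 0.867). Nr3c1 ran through 7.63, 7.90 and 8.02 in PI KO and 7.50, 7.69 and 7.71 in PI WT, a difference of 0.21 (SE 0.11, adjusted p = 0.854). For both genes the direction was that of the CL libraries, which come from the same animals. Errfi1 differed by 0.09 (95% interval -0.11 to 0.28), Tsc22d3 by 0.05 (-0.23 to 0.33), Sgk1 by -0.00 (-0.22 to 0.22) and Nr3c2 by -0.06 (-0.19 to 0.08). In the interaction, the genes other than Errfi1 had differences from -0.00 (Nr3c2) to 0.15 (Sgk1 and Tsc22d3), with intervals that included 0.

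Since the hormone reaches both hemispheres, an animal's CL and PI levels were compared for each gene over the 12 animals, as deviations from the mean of its group. The ends were set to the nearest recovered value, so the 2 lowest animals of a group were tied, as were the 2 highest. For Fkbp5, KO replicates 4 and 5 were tied in both CL and PI. Fkbp5 had the highest correlation, with Pearson r = 0.64 (permutation p = 0.0979) and Spearman rho = 0.56 (permutation p = 0.118). Without the 2 animals farthest from the median CL value r was 0.58, and it was 0.25 within WT and 0.72 within KO. Sgk1 had r = 0.46 (permutation p = 0.157), which was 0.30 without 2 animals. Nr3c1 had r = 0.33 (permutation p = 0.116) with rho = 0.50 (permutation p = 0.0206), and r = 0.21 without 2 animals. Errfi1, Tsc22d3 and Nr3c2 had r of 0.17, -0.03 and -0.06. For Tsc22d3 this joined r = -0.67 in the 6 WT animals and 0.62 in the 6 KO animals, and for Errfi1 0.59 in WT and -0.02 in KO. After adjustment over the 6 genes none passed, the lowest adjusted p being 0.314 for r and 0.124 for rho. The median r over all 13360 genes compared was 0.12, as a description, and the middle range of genes (quartiles) ran from -0.10 to 0.34. The libraries of an animal may also share depth and handling, which were not separated from hormone exposure.

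**Figure D3:**
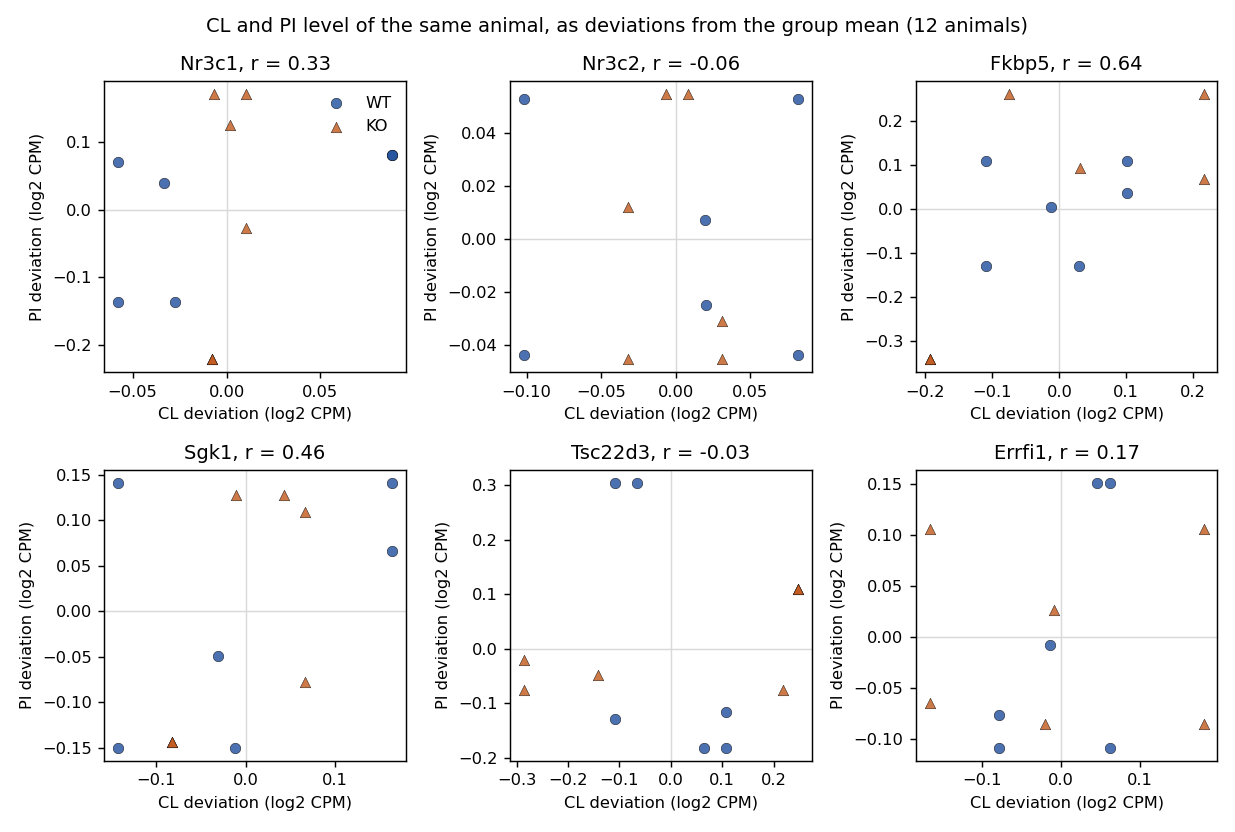
PI level against CL level of the same animal, each as the deviation from its group mean (log2 CPM), for 6 WT (circles) and 6 KO animals (triangles), with Pearson r over the 12 animals in each title. On each side the 2 lowest animals of a group are tied, as are the 2 highest. Fkbp5 (r = 0.64) has the highest r, and Nr3c2 (-0.06) the lowest, while the -0.03 of Tsc22d3 joins -0.67 in WT and 0.62 in KO.

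Variation between animals was also compared gene by gene, on values with the same tied ends. Of the 15 pairs of genes, 0 passed an adjusted p under 0.05 in the CL libraries and 0 in the PI libraries. In PI the pair Sgk1 and Errfi1 had r = 0.78 (permutation p = 0.0106, adjusted p = 0.119), rho = 0.81 (permutation p = 0.00783), and r = 0.69 without 2 animals. In CL the same pair had r = 0.17. Fkbp5 and Tsc22d3 had r = 0.47 in PI (permutation p = 0.0159, adjusted p = 0.119), rho = 0.62 (permutation p = 0.00830), and r = 0.61 without 2 animals. Fkbp5 and Nr3c1, a target and its receptor, had r = -0.56 in PI (permutation p = 0.145), which was -0.23 without 2 animals, and -0.26 in CL (permutation p = 0.247).

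The genes whose pattern over the 24 libraries was most like each of the 6 were sought among 13360 genes, after centring each gene in each table of PI and CL. As a description, Nr3c1 was most like Fbxo34 (r = 0.95), Fmn1 (0.95) and Pdp1 (0.95), and of these Fmn1 and Pdp1 were called lower in PI WT (-0.60 and -0.43). Fmn1 was called lower in PI KO too (-0.45, limma adjusted p = 0.0330). Errfi1 was most like Dio2 (0.90), Zfp820 (0.89) and Gm20390 (0.88). Dio2, the enzyme that activates thyroid hormone in astrocytes, had a side difference of 0.54 in KO (limma adjusted p = 0.00384) and 0.17 in WT (adjusted p = 0.391). Gm20390 had a side difference of 0.93 in KO (limma adjusted p = 0.00014) and 0.02 in WT (adjusted p = 0.964). Sgk1 was most like Car14 (0.91), Chst8 (0.90) and Mdh1 (0.87), and Car14, a carbonic anhydrase, fell by 1.13 in PI WT. Fkbp5 was most like Smim3 (0.86), Aloxe3 (0.85) and Arhgap11a (0.82), and Tsc22d3 most like Gpr165 (0.90), Mknk2 (0.81) and Pomk (0.81), none of these called between the sides. Nr3c2 had the weakest likeness, to Irs2 (0.77), Ppp1r13b (0.72) and Gpr37l1 (0.70). These values share the libraries, their depth and the scaling, and the best of many genes is high by selection. Genes were centred by table and not by group, so the side difference was part of the matched pattern. Side differences of the genes named here are therefore not separate results.

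Of 16 other genes known to be induced by glucocorticoids, 2 were called higher and 4 called lower in PI WT. In PI KO 2 were called higher and 2 called lower. By sign alone, 14 of 16 were lower in PI WT and 12 of 16 in PI KO. The median difference of the list was -0.19 in WT and -0.17 in KO, against 0.01 and -0.00 over all genes tested. Of all genes, 5.20% were called higher and 5.40% called lower in PI WT, and 5.11% called higher and 4.94% called lower in PI KO. Map3k6, a stress kinase, rose by 0.96 in WT and 1.26 in KO, and Gpd1, a glycerol phosphate dehydrogenase, by 0.31 and 0.29. Glul, the glutamine synthetase of astrocytes, fell by 0.47 in WT and by 0.37 in KO, and Sult1a1, a sulfotransferase, by 0.85 and by 0.77. Fam107a and Klf9, a zinc finger factor, fell by 0.46 and by 0.23 in WT. Summed levels of 8 astrocyte markers were 6599 to 7003 CPM in PI WT and 7595 to 8000 in CL WT. In WT 6 of the 8 were lower in PI, with 2 called lower and 1 called higher, and their part was not tested. In KO these sums were 6405 to 7094 CPM in PI and 7608 to 8101 in CL.

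A second list held 12 glucocorticoid-induced genes that tissue injury also induces, and most of its calls were higher in PI. It was picked for that trait with earlier results of these data known, so its calls are a description. In WT 6 were called higher and 1 called lower, and in KO 7 were called higher and 0 called lower. By sign, 9 were higher and 3 lower in each genotype. The median was 0.67 in WT and 0.96 in KO. Of all genes, 5.20% were called higher in WT and 5.11% in KO. Lcn2, the secreted lipocalin of reactive astrocytes and neutrophils, rose by 3.38 in WT and 3.52 in KO, and Mt2, a metallothionein, by 1.87 and 2.35. Mt1 rose by 1.23 and 1.24, and Cebpd, a transcription factor of the acute phase, by 1.28 and 1.86. Cdkn1a, an inhibitor of the cell cycle, rose by 0.81 in WT and 1.18 in KO, and Tgm2, a transglutaminase, by 1.04 and 1.44. Cebpb was called in KO alone (0.75), and Dusp1, a phosphatase of MAP kinases, was called lower in WT alone, by 0.46. The differences between genotypes in these side effects were not called for any gene of the list.

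In CL KO against CL WT, 0 of the 16 induced genes were called. The list was chosen with earlier results of these data known, so its counts are a description. By sign, 14 of 16 were lower in CL KO, with a median of -0.17 against -0.00 over all genes. Against CL, 14 of 16 were also lower in PI WT and 12 of 16 in PI KO. In CL KO 5 of the 16 were lower at an unadjusted p under 0.05 by the same test. The share of all genes that were lower at that unadjusted threshold was 2.56%. Those 5 were Plin4 (-0.69), Pdk4 (-0.47), Hif3a (-0.37), Ddit4 (-0.23) and Klf9 (-0.18), named after their values were seen. Of the 11 injury-induced genes tested in that table, 9 were lower, 4 of them at the unadjusted threshold and 1 gene higher at it, and 0 were called. In PI 11 of the 16 were lower in KO, 2 at the unadjusted threshold (2.95% of all genes), with a median of -0.08.

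**Figure D4:**
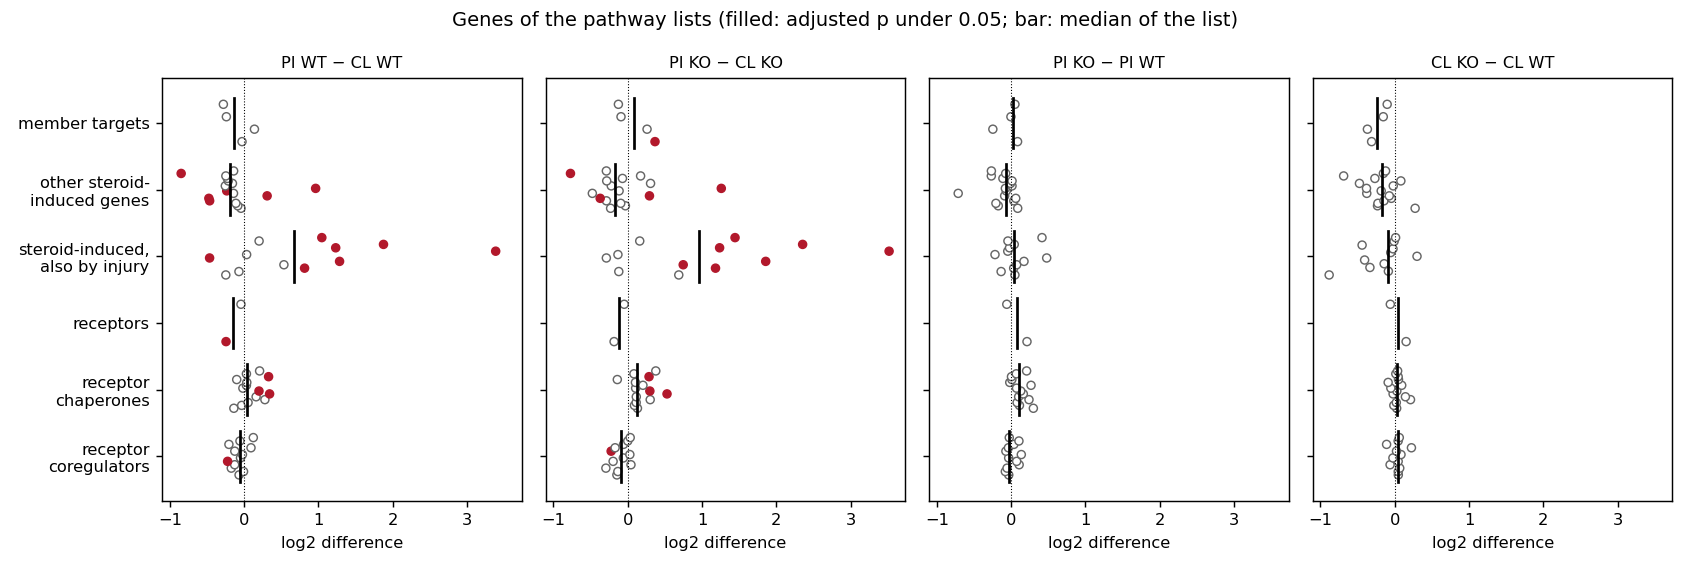
Log2 difference of each gene in 6 lists (rows), in PI against CL within WT and KO and in KO against WT within PI and CL (panels). Filled red points had an adjusted p under 0.05 and black bars give the median of a list. The calls lie in the side comparisons, where the injury-induced list reaches 3.52, and none lies in the genotype comparisons.

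Of 14 chaperones and partner proteins that hold the receptor, 3 were called higher in PI in each genotype and 0 were called lower. By sign, 10 of the 14 were higher and 4 lower in WT, and 13 higher and 1 lower in KO. Of all genes, 5.20% were called higher in WT and 5.11% in KO. Hsp90aa1 rose by 0.34 in WT and 0.53 in KO, Hsp90ab1 by 0.20 and 0.30, and Ptges3, the p23 co-chaperone, by 0.33 and 0.29. Fkbp4, which replaces FKBP5 on the activated receptor, differed by 0.16 in WT and 0.12 in KO and was not called. Of 12 coregulators of the receptor, Ncoa1 fell by 0.22 in WT and Ncor1, a corepressor, fell by 0.22 in KO. This is 1 call of 12 in each genotype, near the share of all genes called (10.6% in WT and 10.0% in KO). Among hormone-handling genes, 5 of 8 were tested and Abcb1a, the efflux pump of the blood-brain barrier, fell by 0.37 in KO. Hsd11b2, Akr1c14 and Serpina6 were not listed.

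Genes that act with the targets gave at most 1 call per list and genotype, in lists of 3 to 9 genes, against a share over all genes of 10.6% (WT) and 10.0% (KO). Of 9 tested relatives, activators and substrates of SGK1, Foxo3 fell by 0.25 in WT and Ndrg2 by 0.31 in KO. Of 3 relatives of Tsc22d3, Tsc22d4 rose by 0.35 in KO. Erbb4, 1 of 3 tested ErbB receptors, fell by 0.37 in WT and by 0.25 in KO. Of 3 tested genes of the stress hormone axis, Crhbp, which binds corticotropin-releasing hormone, rose by 0.72 in KO. Between genotypes and in the interaction, 0 genes of these lists were called.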

How the data were processed

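The 24 libraries (12 animals, 6 per genotype, CL and PI of each) were grouped by their titles. Per the labels' protocols, total RNA was depleted of ribosomal RNA and made into libraries with the CORALL kit. The authors deposited log2 CPM values in 4 tables, 1 per pair of groups, each scaled separately, per the file headers. The build named in the submitters' processing notes is mm10. The aligner, the counting, its strand setting and the gene filter are not given in the sources used here. All value columns matched a sample title (0 unused).

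In every gene and group the deposited log2 values of the 2 lowest libraries were tied, as were those of the 2 highest, at the quartiles of the group. The 4 inner values were solved from this. The mean of these 4 was tested with the Winsorized sum of squares (6 degrees of freedom for 2 groups, 12 for the interaction), moderated by limma 3.58.1 in R 4.3.3 with a trend. P-values were two-sided and Benjamini-Hochberg adjusted over all genes. A count test was not used, because the tied values are not reads. The procedure was tested on simulated data. Correlations used 100000 permutations within genotype.

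Depth came from the step that made low CPM values whole within 0.05 read (79.7% to 90.5% of values). It is an estimate, and the floor of 3 reads covers counting error only. PI and CL libraries with the same number come from the same animal, per the labels. Their deviations from the group means correlated at -0.01 to 0.20 in WT and -0.01 to 0.19 in KO. WT and KO animals share only a number.

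The 6 genes and all lists were chosen with earlier results of these data known. All 6 are reported in every comparison. Of each pathway list the called genes are named, and of each of the 6 genes the 3 most alike by Pearson r over 24 libraries, among genes with a mean of at least 1 log2 CPM. The markers covered neurons, cortical layers, astrocytes, microglia, oligodendrocytes and their precursors, endothelium, pericytes, neutrophils and monocytes, red blood cells, choroid plexus and striatum. Alternatives were limma on the deposited values, no trend, median centring, a pseudocount of 0.5 CPM, a minimum mean of 0 log2 CPM, the animal as a replicate block, and leaving out each library. Positions are from GENCODE M21 on GRCm38, and promoter windows from RefSeq.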

Additional observations from a re-analysis of the deposited data

How the results depend on the processing

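limma on the deposited, drawn-in values, which understate the spread, called 6459 genes for PI against CL in WT, 6666 in KO, 2388 for KO against WT in PI, 2311 in CL and 1940 in the interaction, against 1537, 1440, 3, 4 and 0. It added calls for Fkbp5, Sgk1 and Tsc22d3 in WT, Nr3c1 and Fkbp5 in KO, Nr3c1 and Fkbp5 between genotypes in PI, Nr3c1, Fkbp5, Sgk1 and Errfi1 in CL, and Errfi1 in the interaction (adjusted p = 0.00106). Without a trend the side comparisons had 1015 and 739 calls, and Nr3c1 in WT (adjusted p = 0.137) and Errfi1 in KO (0.101) were not called. With the animal as a replicate block, Sgk1 and Tsc22d3 in WT were called and no other call of the 6 genes changed. All-gene counts were then 2275 in WT and 2154 in KO. Blocking on the shared number gave 6 calls between genotypes in PI, 85 in CL and 1 in the interaction. In the interaction the block joins CL and PI of 1 animal. Same-numbered WT and KO libraries correlated at -0.19 to 0.15 in PI, where 1 of 6 matched its own number best, and at -0.13 to 0.13 in CL, where 2 of 6 did. Median centring turned Sgk1 in PI from -0.00 to 0.0017. The cause of these changes was not tested.

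Leaving out 1 library gave 1117 to 1468 calls in WT, 900 to 1602 in KO (900 without CL KO replicate 5, 922 without PI KO replicate 2), 3 to 4 in PI, 3 to 7 in CL (7 without CL KO replicate 1) and 0 to 0 in the interaction. Differences that changed sign were Errfi1 in WT (-0.082 to 0.0043), Sgk1 in PI (-0.057 to 0.045) and Nr3c2 in the interaction (-0.029 to 0.032), none of them called. Over all alternatives, values of the 6 genes kept their direction and their side of the threshold in 556 cases, changed sign in 18, lost the call in 22 and gained it in 16. Genes near 1 read per library are the ones depth limits, and the 6 genes, at 27.0 CPM or more in the side tables, are well above the floor.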

Other observations

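In PI the sum of the 3 listed neutrophil and monocyte markers was 5.21 to 11.3 CPM in KO and 3.79 to 5.75 in WT, with 3 of 3 higher and 0 called, and Ly6g, Mpo, Elane, Ccr2, Ly6c2 and Plac8 were not listed. Red blood cell markers overlapped between CL KO (10.6 to 60.7 CPM) and CL WT (12.1 to 50.9 CPM). Endothelial sums overlapped in all 4 comparisons, for example 94.6 to 139.9 CPM in PI WT and 93.6 to 135.4 in CL WT. Pericyte and smooth muscle sums overlapped likewise, at 84.0 to 101 CPM in PI WT and 84.2 to 115 in CL WT. Oligodendrocyte precursor sums overlapped, at 104 to 122 CPM in PI WT and 113 to 127 in CL WT. Striatal sums were 119 to 146 CPM in PI WT and 138 to 177 in CL WT, and 1 choroid plexus marker of 6 was listed.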
